A study of Mus musculus with 18 samples.

Results

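The 4 mature arms of miR-296 and miR-298 were followed while embryonic stem cells (ESCs) were derived from mouse blastocysts, as 4 of the 1390 mature miRNAs measured by small-RNA sequencing (mmu-miR-296-5p, mmu-miR-296-3p, mmu-miR-298-5p and mmu-miR-298-3p). They were chosen by name, as both arms of the 2 precursors that lie beside the imprinted Gnas locus, and the balance between the 5p and 3p arm of miR-296 was followed with them. The 18 libraries formed 9 groups of 2, all from the NMRI mouse strain and all labelled as held in R2i medium with leukemia inhibitory factor (LIF). The groups were ESCs with the codes P2, P4 and P15, outgrowths of the inner cell mass (ICM), taken on day 0.5, day 1, day 2, day 3 or day 5, and freshly isolated ICM on day 0. ICM is the part of the blastocyst from which the embryo proper and ESCs arise, and it was freed from the outer trophectoderm by immunosurgery. R2i pairs PD0325901, an inhibitor of MEK, with SB431542, an inhibitor of activin and TGF-beta type I receptors. Titles and descriptions give the ESC libraries different passages, so the codes are those of the descriptions and stand for no order. The labels do not say whether the libraries of a group came from separate embryos or cultures, so the p-values measure the spread between these libraries, which may be technical.

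A miRNA precursor is a hairpin that is cut into a duplex of 2 arms, named 5p and 3p by their place in it, and one arm or both are then kept in an Argonaute protein, where bases 2 to 8, the seed, guide it to messenger RNAs. The Gnas locus is an imprinted domain in which maternal and paternal chromosomes give different transcripts, among them Nespas, a noncoding RNA of the paternal chromosome that runs antisense to Nesp. miR-296 and miR-298 are known as paternally expressed miRNAs of this domain in the mouse. miR-296 is known in mouse ESCs as one of the miRNAs, with miR-134 and miR-470, reported to act on the coding sequences of pluripotency factors such as Nanog, and to increase when ESCs differentiate. The allele of origin was not measured here.

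The 4 mature sequences are shown because all results below concern these molecules and because none of them shares its seed, which is in capitals. They are printed 5′ to 3′ from RefSeq on build GRCm38.p6, and all 4 were matched by name.

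miR-296-5p: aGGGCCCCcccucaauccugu
miR-296-3p: gAGGGUUGgguggaggcucucc
miR-298-5p: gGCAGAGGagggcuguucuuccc
miR-298-3p: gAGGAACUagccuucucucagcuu

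Each seed was found in 1 mature mouse entry of the RefSeq table, the arm itself, and each arm was found in 1 hairpin, so that table holds no identical copy. Copies with a mismatch were not looked for. The 3 arms that were well measured are rich in G and C, at 66.7% for miR-296-5p, 68.2% for miR-296-3p and 65.2% for miR-298-5p, against a median of 52.2% over 1679 mature entries. miR-298-3p has 50% G and C. miR-296-5p is the only one of the 4 that starts with A, the other 3 starting with G.

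The hairpins show where the arms lie, with the mature arms in capitals. The Mir298 hairpin is at chr2:174267504-174267585 and the Mir296 hairpin at chr2:174267047-174267125, both on the minus strand.

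Mir298: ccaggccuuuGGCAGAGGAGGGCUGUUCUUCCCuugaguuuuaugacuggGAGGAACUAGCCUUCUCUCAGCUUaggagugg
Mir296: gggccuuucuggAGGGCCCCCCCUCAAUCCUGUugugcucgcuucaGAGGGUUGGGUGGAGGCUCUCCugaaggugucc

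The hairpins lie 378 bases apart, Mir298 upstream of Mir296 in the direction of transcription. In GENCODE vM21 on GRCm38 no other gene overlaps them, so they are intergenic there. Nespas is annotated on the same strand at chr2:174281237-174295436 and ends 13651 bases before Mir298. Gnas is on the opposite strand at chr2:174284320-174346744.

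**Figure D1:**
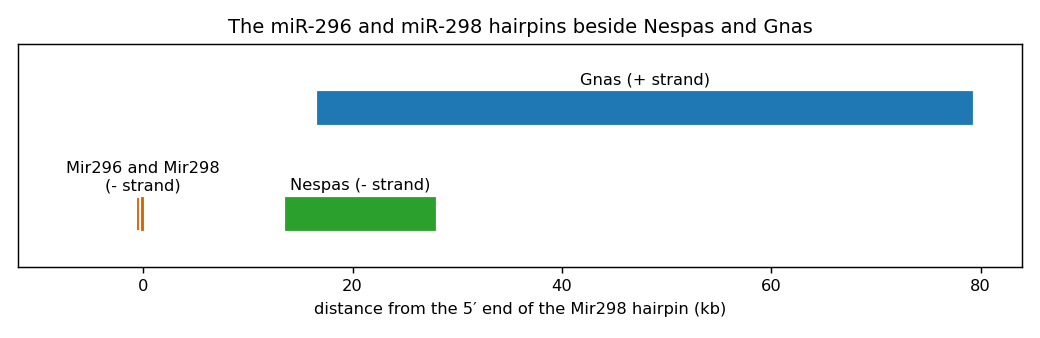
Map of the locus, with distance in kb from the 5′ end of the Mir298 hairpin on the x axis and genes as boxes, the upper row being the plus strand and the lower row the minus strand. The hairpins lie 378 bases apart and 13651 bases beyond the annotated end of Nespas, on its strand.

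Sites of the seeds were looked for in mouse messenger RNAs for which a link is known. Bace1, the beta-secretase that cuts the amyloid precursor protein, is a reported mouse target of miR-298, and Tmed9, a cargo receptor of the early secretory pathway, a reported mouse target of miR-296. The 3′ untranslated region of Bace1 held the 7 letters CCTCTGC, complementary to the miR-298-5p seed, at 2 places, and that of Tmed9 held GGGGCCC, complementary to the miR-296-5p seed, at 1 place. The sites are shown on the mRNA strand in DNA letters, with the match in capitals.

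Bace1, chr9:45860573-45860594: gcttcagccctgacCCTCTGCc
Bace1, chr9:45861376-45861397: ggctgatgcatttgCCTCTGCc
Tmed9, chr13:55597485-55597506: tgcagtgcacaaaaGGGGCCCa

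Only the mRNA strand was searched, in 1 transcript per gene. CCTCTGC occurred in the 3′ untranslated regions of 17.1% of 21877 protein-coding genes and GGGGCCC in those of 5.91%. The coding sequence of Nanog, the pluripotency transcription factor, held no match to the seed of miR-296-5p (GGGGCCC) or miR-296-3p (CAACCCT). These letters occurred in 13.5% and 12.3% of all coding sequences. Only exact matches were sought, so the search cannot tell whether miR-296 acts on Nanog through another kind of site. Targets were not measured in these libraries.

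The values are normalized counts that the authors deposited as whole numbers, with totals of 781162 to 1265117 per ESC library, 639928 to 967060 per outgrowth library, and 602238 and 625749 in ICM. The low values of the 10 libraries of days 0 to 3 were evenly spaced, which gave an estimate of 110746 to 370150 reads each. In the other 8 libraries the spacing lay below the rounding, and they would hold at least 2322097 reads each if their lowest value also stands for 5 reads. miR-298-5p then rested on 2912 to 9091 reads in each library of days 0 to 3, a counting error of 1.05% to 1.85%. The counting error was 7.93% to 17.4% for miR-296-5p, with 33 to 159 reads, and 6.97% to 17.7% for miR-296-3p, with 32 to 206. Intervals and counting errors cover counting only. Of 20 listed arms of the miR-290 and miR-302 families, which mark pluripotent cells, 17 were found by name. Together these held 4.03% to 7.21% of the counts in ESC libraries, 3.54% to 7.35% in outgrowths and 7.29% to 7.74% in ICM. The list did not cover the families, since miR-292-5p and miR-291a-5p averaged 33680.5 and 15768 in ICM, where it summed to 45634 and 46600. In ICM 11 of the 17 were above 0, with miR-302a-5p, miR-302b-5p, miR-302b-3p, miR-302c-5p, miR-302c-3p and miR-367-3p at 0. In ESCs miR-302b-5p was at 0 in every library, and in outgrowths none of the 17 was. A list of 4 fibroblast miRNAs held 0.16% to 0.256% in ESCs, 0.0283% to 0.169% in outgrowths and 0.117% to 0.195% in ICM, with miR-145a-5p at 0 in ICM. The 2 trophectoderm miRNAs held 0.0172% to 0.136% in ESCs, 0.0525% to 0.235% in outgrowths and 0.0398% to 0.0452% in ICM, so every outgrowth library lay above both ICM libraries. The blood list held at most 0.266% and the neural list at most 0.013% of any library. The part of these cells in the results below was not tested.

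miR-298-5p was one of the main miRNAs of the cells at every stage. It held 1.25% to 3.51% of the counts of ESC libraries, 1.46% to 2.57% of outgrowth libraries, and 2.63% and 3.07% of the ICM libraries, and stood 5th to 19th among all miRNAs of its library. Its normalized counts were 15836 and 19194 in ICM, 15751 and 17578 on day 0.5, 17433 and 17164 on day 1, 11541 and 12007 on day 2, 16073 and 12316 on day 3, and 15874 and 18153 on day 5. They were 10799 and 10214 in ESC P2, 39921 and 31801 in ESC P4, and 23153 and 19680 in ESC P15. On this scale the level stayed within a narrow range through day 5, with a low on day 2. The 3 ESC codes were spread from the lowest to the highest group mean of the study. As a share of the library it moved more, from 2.63% and 3.07% in ICM to 1.49% and 1.46% on day 2. It was 1.66% and 1.84% on day 3 and 2.28% and 2.32% on day 5. The mean was 22595 ± 11715 in ESCs (SD, n = 6), 15389 ± 2501 in outgrowths (n = 10) and 17515 ± 2374 in ICM (n = 2).

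**Figure D2:**
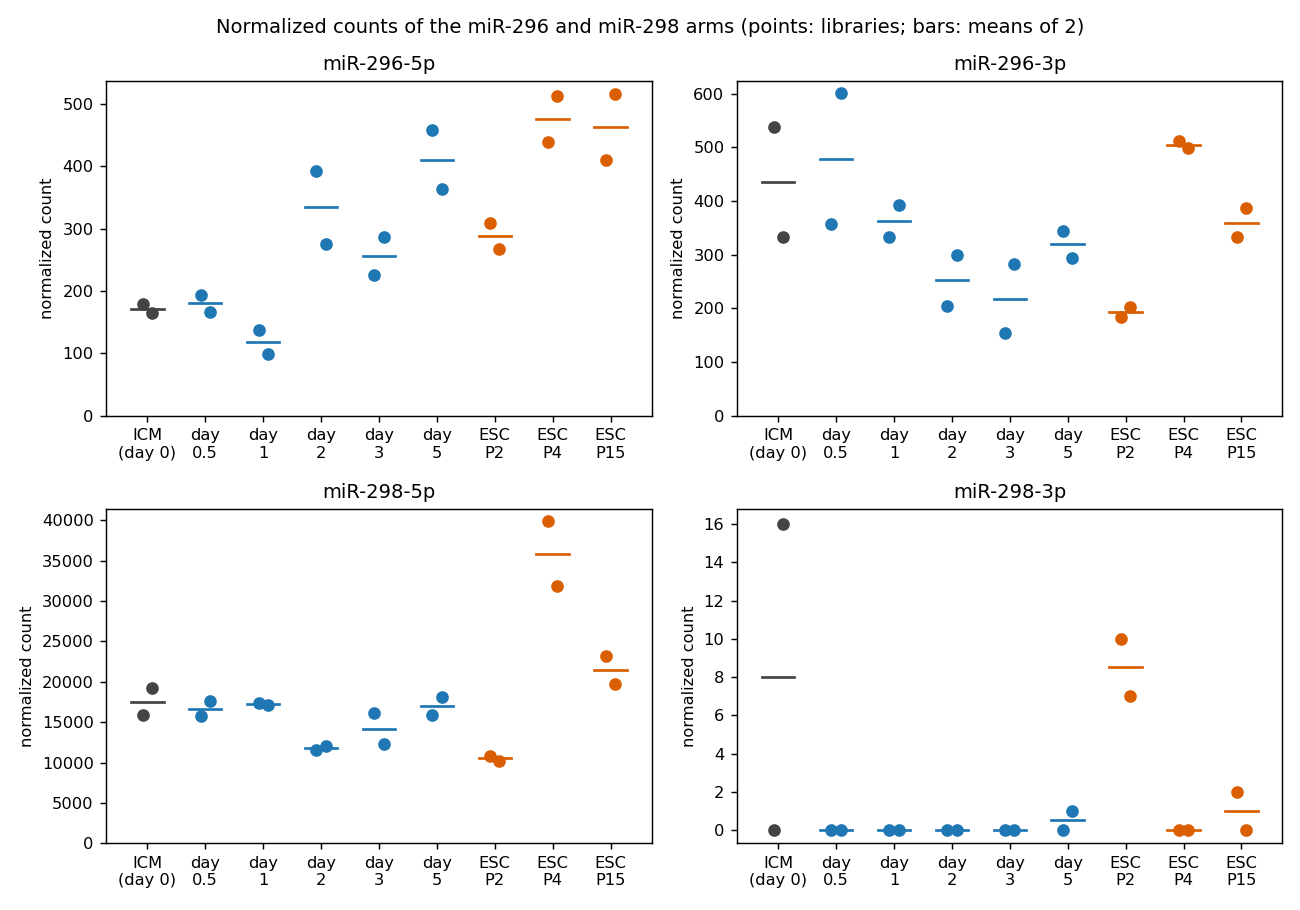
Normalized counts (y axis, linear) of the 4 arms in the 9 groups in order of time, with ESC codes at the right; points are libraries and bars the means of 2. miR-298-5p is 15751 to 19194 up to day 1 and parts by ESC code, miR-296-5p is 99 to 194 up to day 1 and 226 to 516 from day 2 on, and miR-298-3p is at 0 in 13 of 18 libraries.

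No difference between ESCs and ICM was called for miR-298-5p, with a log2 change of 0.20 (95% interval -0.08 to 0.48, limma adjusted p = 0.20), nor between outgrowths and ICM (-0.20, interval -0.46 to 0.07, adjusted p = 0.214). Here and below a call is a Benjamini-Hochberg adjusted p below 0.05 over the 811 miRNAs tested on log2(normalized count + 1). In ESCs against ICM 55.2% of them were called and in outgrowths against ICM 34.9%. ESCs stood 0.40 (SE 0.08) above outgrowths (limma adjusted p = 0.00158), a comparison in which 51.8% were called. This does not hold for each ESC code, since the mean of ESC P2, 10506.5, lay below that of every outgrowth group. The SE measures the spread within groups and not that between codes. The ESC libraries have higher totals, and the deposited scale was checked against libraries rescaled to the same total. That rescaling moved the median change of all tested miRNAs in ESCs against ICM from 0.01 to -0.44, and miR-298-5p was then lower in ESCs (-0.52, limma adjusted p = 6.82e-04). Relative to the median miRNA its change was 0.19 as deposited and -0.08 after rescaling. In ESCs against outgrowths the rescaled change was -0.05 (adjusted p = 0.551). In outgrowths against ICM it was -0.47 and was called (adjusted p = 0.00183).

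Among ESCs, the level of miR-298-5p differed from code to code. The pairwise tests between codes were added after the values were seen. P4 stood above P2 by 1.76 log2 (SE 0.15, 3.39-fold, limma adjusted p = 1.41e-05), P15 above P2 by 1.02 (SE 0.15, 2.03-fold, adjusted p = 4.32e-04) and P4 above P15 by 0.74 (SE 0.15, 1.67-fold, adjusted p = 0.00549). In these 3 comparisons 17.8%, 21.3% and 16.5% of the tested miRNAs were called. No library of one code overlapped with another, but for how many of all tested miRNAs this holds was not counted. After rescaling to the same total the changes were 1.37, 0.40 and 0.97, all 3 still called (adjusted p = 1.01e-05, 0.0283 and 7.69e-05). As deposited, the call of P4 against P15 was lost without P4 replicate 1 (0.58, adjusted p = 0.0643) or P15 replicate 2 (0.62, adjusted p = 0.0647). P15 against the mean of P2 and P4 was not called (0.14, interval -0.15 to 0.44, limma adjusted p = 0.652), P15 lying between them, where 19.6% of all miRNAs were called.

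By time step, miR-298-5p fell by 0.56 log2 on day 2 against day 1 (SE 0.15, limma adjusted p = 0.0416), with 11541 and 12007 on day 2 against 17433 and 17164 on day 1. In that step 10.9% of the tested miRNAs were called. The call was lost without any 1 of these 4 libraries (adjusted p = 0.123 to 0.164). None of the other 4 steps was called for it, with changes of -0.07 to 0.27 and limma adjusted p of 0.286 to 1. At equal library totals day 5 against day 3 was called (0.39, adjusted p = 0.0401). Of all tested miRNAs 11.3% were called on day 0.5 against ICM, 15.2% on day 1 against day 0.5, 4.07% on day 3 against day 2 and 18.4% on day 5 against day 3. The ratio of its highest to its lowest group mean was 3.41, and 30 of 281 miRNAs with a mean of at least 100 had a smaller ratio, the median being 12.7.

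miR-296-5p, the less abundant neighbour, rose on day 2. Its normalized counts were 179 and 164 in ICM, 194 and 166 on day 0.5, 137 and 99 on day 1, 393 and 275 on day 2, 226 and 287 on day 3, and 458 and 363 on day 5. In ESCs they were 309 and 267 in P2, 439 and 513 in P4, and 410 and 516 in P15. As deposited, all 12 libraries from day 2 on lay above all 6 of the days before, with 226 to 516 against 99 to 194, a split drawn after the values were seen. Of the 811 tested miRNAs 7.77% had no overlap between these periods, 3.21% with the later libraries higher. As a share of the library the periods overlapped for miR-296-5p, at 0.0234% to 0.0657% against 0.0148% to 0.0303%, with day 3 replicate 1 the 1 later library inside the earlier range. The mean was 409 ± 103 in ESCs (SD, n = 6), 259.8 ± 117.3 in outgrowths (n = 10) and 171.5 ± 10.6 in ICM (n = 2).

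miR-296-5p was 2.31-fold higher in ESCs than in ICM (a log2 change of 1.21 with SE 0.20, limma adjusted p = 2.96e-04). It stood 0.76 (SE 0.13) above outgrowths (limma adjusted p = 3.81e-04). The change of outgrowths against ICM, 0.45, was not called (interval 0.04 to 0.87, limma adjusted p = 0.0865). At equal library totals the changes were 0.50 against ICM (adjusted p = 0.161) and 0.31 against outgrowths (adjusted p = 0.188), so both calls rest on the deposited scaling. Relative to the median miRNA the change against ICM was 1.20 as deposited and 0.94 after rescaling.

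The step in which miR-296-5p was called is day 2 against day 1, with a 2.81-fold rise (log2 change 1.49, SE 0.24, limma adjusted p = 0.00224). That call held after rescaling (1.26, adjusted p = 0.0466) and without any 1 library of these days (1.23 to 1.75, adjusted p = 0.00354 to 0.0222). The other 4 steps were not called, with adjusted p of 0.0861 to 1. ESCs and day 5 differed by -0.04 (interval -0.47 to 0.40, limma adjusted p = 1). In ESCs against day 5 14.9% of all tested miRNAs were called. Among ESC codes P4 held 0.72 more than P2 (limma adjusted p = 0.0659) and P15 0.68 more (adjusted p = 0.0763), neither of them called. Both were called at a common floor of 27.2 normalized counts, 5 reads in the shallowest library (adjusted p = 0.0396 and 0.0459), whereas at equal totals the changes were 0.33 (adjusted p = 0.741) and 0.057 (adjusted p = 1). Ordered by mean, day 1 was lowest, followed by ICM, day 0.5, day 3, ESC P2, day 2, day 5, ESC P15 and ESC P4. From day 3 upward each group overlapped with its neighbour in this order.

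miR-296-3p, the other arm of the same hairpin, was not called in that step. Its normalized counts were 538 and 332 in ICM, 357 and 601 on day 0.5, 332 and 392 on day 1, 205 and 300 on day 2, 154 and 282 on day 3, with a mean of 319 ± 35.4 on day 5 (SD, n = 2). ESC libraries held 184 and 203 in P2, 512 and 498 in P4, and 332 and 386 in P15. Replicates lay farthest apart on day 3, day 0.5 and in ICM, relative to their means, and every group overlapped with its neighbour in the order of means. ESCs averaged 352.5 ± 140.6 (SD, n = 6), outgrowths 326 ± 120 (n = 10) and ICM 435 ± 146 (n = 2).

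No pooled comparison was called for miR-296-3p on the deposited scale. ESCs against ICM gave -0.37 (interval -0.98 to 0.25, limma adjusted p = 0.274), outgrowths against ICM -0.46 (interval -1.04 to 0.13, adjusted p = 0.201), ESCs against outgrowths 0.09 (interval -0.30 to 0.48, adjusted p = 0.69) and ESCs against day 5 0.04 (interval -0.58 to 0.66, adjusted p = 1). After rescaling to the same total it was lower in ESCs than in ICM (-1.08, adjusted p = 0.018). None of the 5 time steps was called (adjusted p = 0.278 to 1). Between ESC codes it was higher in P4 than in P2 (log2 change 1.38, SE 0.34, limma adjusted p = 0.0153). This call was lost after rescaling (0.99, adjusted p = 0.148) and without any 1 of the 4 libraries (adjusted p = 0.0629 to 0.0977).

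The share of the 5p arm of miR-296 was higher from day 2 on, and this measure does not depend on how libraries are scaled. The 5p arm made up 24.97% and 33.1% of both arms in ICM, 35.2% and 21.6% on day 0.5, and 29.2% and 20.2% on day 1. It made up 65.7% and 47.8% on day 2, 59.5% and 50.4% on day 3, 57.1% and 55.3% on day 5, 62.7% and 56.8% in ESC P2, 46.2% and 50.7% in ESC P4, and 55.3% and 57.2% in ESC P15. The 3p arm was the higher one in all 6 libraries up to day 1, and the 5p arm in 10 of the 12 later libraries. The exceptions were replicate 2 of day 2 and replicate 1 of ESC P4. The shares of the 2 periods did not overlap, with 46.2% to 65.7% later and 20.2% to 35.2% up to day 1. Exact (Clopper-Pearson) 95% intervals from the estimated reads reached at most 41% up to day 1 and down to 40.1% on days 2 and 3. The split at day 2 was drawn after the values were seen and was not tested as such. By the same count 6 of 193 precursors with both arms tested (3.11%) had no overlap between these periods.

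**Figure D3:**
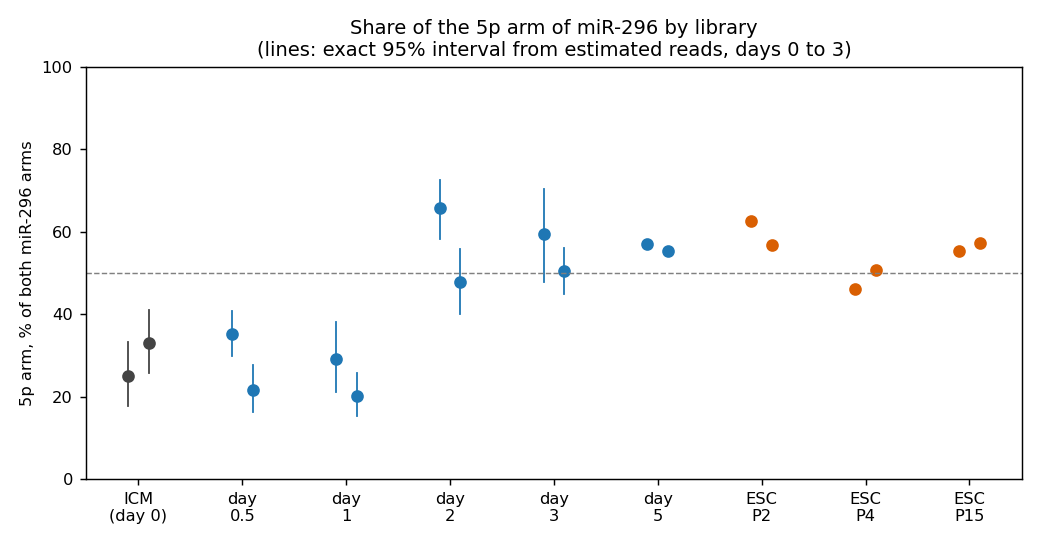
Share of the 5p arm in percent of both miR-296 arms (y axis) in the 9 groups; points are libraries, and lines are exact 95% intervals from estimated reads for days 0 to 3, where reads could be estimated. The 6 libraries up to day 1 lie between 20.2% and 35.2%, and the 12 later ones between 46.2% and 65.7%.

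Tested as the log2 ratio of 5p to 3p over the 193 precursors, the ratio was 2.99-fold higher in ESCs than in ICM (a log2 change of 1.58 with SE 0.48, limma adjusted p = 0.0252). In this comparison 34.7% of the arm ratios were called, and the median change over all 193 was 0.50. The call was lost without ICM replicate 1 (1.29, adjusted p = 0.126), without ESC P2 replicate 1 (1.52, adjusted p = 0.0601) or without ESC P4 replicate 2 (1.53, adjusted p = 0.0525). On day 2 against day 1 the ratio changed by 2.03 (SE 0.59, unadjusted p = 0.00559), which was not called (limma adjusted p = 0.18). Of all arm ratios 2.07% were called in that step. Where values under the common floor were raised to it, the change was nearly the same, 2.04, with a smaller SE of 0.42, and was called (adjusted p = 0.00472). At that floor 129 arm ratios could be tested, of which 14% were called in this step. ESCs against outgrowths (0.67, limma adjusted p = 0.13) and outgrowths against ICM (0.91, adjusted p = 0.182) were not called as deposited, where 29% and 14.5% of all arm ratios were. Both were called at the floor (adjusted p = 0.0171 and 0.0377), where 62.8% and 44.2% of the 129 arm ratios were called. ESCs and day 5 differed by -0.08 (interval -1.14 to 0.98, limma adjusted p = 0.998), with 1.55% of arm ratios called.

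miR-298-3p, the opposite arm of the abundant miR-298-5p, was at the limit of detection. It was listed at 16 in ICM replicate 2, at 1 in 1 library of day 5, at 10 and 7 in ESC P2 and at 2 in 1 library of ESC P15, and at 0 in the other 13 libraries. The 16 counts in ICM stand for 5 reads. No library of days 0 to 3 lists a value under 5 reads, so a 0 there allows fewer than 5 reads, or under 27.2 normalized counts in the shallowest library. In the P2 libraries the 3p arm made up 0.0925% and 0.0685% of both miR-298 arms. No comparison was called for it (limma adjusted p = 0.0586 to 1 over all 14 comparisons), and it never reached the floor. The comparisons with ICM hang on the 5 reads of ICM replicate 2. Without ICM replicate 1 the change in ESCs against ICM was -2.75 and in outgrowths against ICM -3.99. Without ICM replicate 2 these changes were 1.34 and 0.10.

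**Figure D4:**
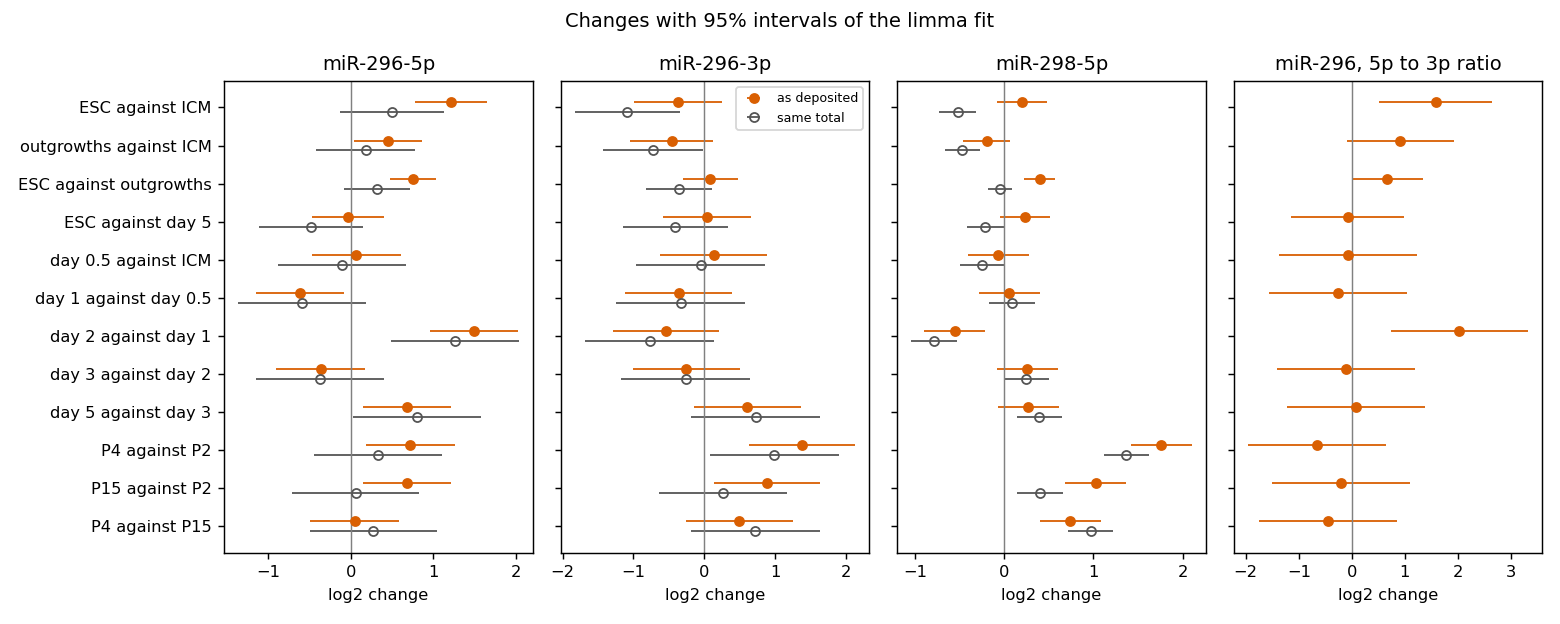
Log2 changes (x axis) with 95% intervals of the limma fit for the 3 well-measured arms and the miR-296 arm ratio in 12 comparisons (y axis); filled points are values as deposited and open points, not drawn for the ratio, values rescaled to the same total. On day 2 against day 1 miR-296-5p changes by 1.49 and the arm ratio, which was not called, by 2.03, and miR-298-5p parts most between ESC codes P4 and P2, by 1.76.

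Over all 9 groups, any difference was called for miR-298-5p (limma adjusted p = 5.06e-05), miR-296-5p (adjusted p = 1.56e-04), miR-296-3p (adjusted p = 0.0272) and the arm ratio (adjusted p = 0.0392). It was called for 66.5% of all miRNAs and 31.6% of all arm ratios, so a call was common among miRNAs. The call was lost without any 1 of the 4 libraries of ESC P2 and P4 for miR-296-3p (adjusted p = 0.0601 to 0.0759). For the arm ratio it was lost in 11 of 18 omissions, those of any ESC, day 1 or day 5 library and of day 2 replicate 1 (adjusted p = 0.0508 to 0.0989). The 5p arms of these neighbours on the chromosome did not keep a fixed ratio. miR-298-5p, of 23 bases, was 34.9 to 90.9 times as high as miR-296-5p, of 21 bases, in ESCs, 29.4 to 173 times in outgrowths, and 88.5 and 117 times in ICM. That ratio also carries the arm balance of miR-296. Against both arms of miR-296 together it was 21.7 to 42 times in ESCs, 19.3 to 42.3 in outgrowths, and 22.1 and 38.7 in ICM. The means of this second ratio over these pools lay close to each other, at 28.3, 27.5 and 30.4. The means of the 9 groups did not, running from 20.1 on day 2 to 36.7 in ESC P4. Day 1 had 36.1 and ESC P2 21.8. As a description over the 9 group means at the common floor, miR-298-5p went with miR-296-3p (Pearson r = 0.80) more than with miR-296-5p (r = 0.31), and the arms of miR-296 had r = -0.09. All members of a library share its scaling, and ESC P4 is the highest group of all 3.

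The miRNAs most like each member over the 9 group means were ranked by Pearson r among 278 miRNAs with a mean of at least 100. For miR-296-5p they were miR-30c-1-3p (r = 0.85), miR-205-5p (0.85), miR-335-3p (0.84), miR-363-3p (0.82) and miR-106a-5p (0.82). The mean of miR-205-5p was 1774 in ESC P15 and 1374.5 on day 5 against 159.5 in ICM. For miR-296-3p they were miR-1946a (0.87), miR-672-5p (0.84), miR-1195 (0.78), miR-291b-5p (0.77) and miR-3473d (0.76). The mean of miR-672-5p was 664 in ESC P2 and 4009.5 in ICM. For miR-298-5p they were let-7c-5p (0.85), miR-6909-3p (0.79), miR-292-5p (0.68), miR-99b-5p (0.66) and miR-291a-5p (0.66). let-7c-5p averaged 1875 in ESC P4 and 77 to 310.5 in every other group. With 9 groups and shared libraries these values only describe likeness.

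Other miRNAs of imprinted loci are given beside them. Of 6 named arms, 4 were tested: both arms of miR-335, from an intron of Mest, and both of miR-483, from Igf2. In ESCs against ICM 2 of the 4 rose and 0 fell, where 31.6% of all miRNAs rose and 23.7% fell, with a median change of 0.95 against 0.01 over all miRNAs. miR-335-5p held 353 and 357 in ESC P2, 193 and 219 in P4 and 218 and 179 in P15, against 38 and 31 in ICM (a log2 change of 2.79 with SE 0.25, limma adjusted p = 2.45e-06). Its change in P4 against P2, -0.79, was not called (limma adjusted p = 0.122). The other arm, miR-335-3p, went the other way, with 1072 and 794 in P4 and 507 and 565 in P2, and was not called as deposited either. At the common floor 1 of the 4 tested arms was called higher in P4 than in P2 and 0 lower, where 91 of 602 miRNAs were called higher. Both arms of miR-483 fell in ESCs against outgrowths, with miR-483-3p at 0 to 10 in ESCs and 20 to 162 in outgrowths (-3.95, limma adjusted p = 6.19e-04). At the common floor that change was -1.11 (adjusted p = 0.00129). In this comparison 19.9% of all miRNAs fell. The arms of miR-675, of H19, were not tested, miR-675-3p being at most 3.

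The miRNAs reported with miR-296 to act on pluripotency factors did not all change in 1 direction. Of the 4 arms of miR-134 and miR-470, 3 were tested. In ESCs against ICM 2 of these rose and 1 fell, where 31.6% of all miRNAs rose and 23.7% fell. One of the 2 arms that rose, miR-134-3p, was at 0 in ICM and at most 17 in ESCs, below the common floor. miR-134-5p held 3117 and 3251 in P2, 8288 and 7345 in P4, and 598 and 675 in P15, against 109 and 239 in ICM (a log2 change of 3.95 with SE 0.23, limma adjusted p = 8.27e-08). miR-470-5p fell, with 1717 and 1839 in P2 and 1198 and 1357 in P15 but 29582 and 11651 in P4, against 9571 and 12788 in ICM (-1.67, SE 0.38, adjusted p = 0.00311). P4 replicate 1 lay above both ICM libraries and P4 replicate 2 between them, and the P2 and P15 libraries lay below both. All 3 tested arms were higher in P4 than in P15, as were 8.75% of all miRNAs and miR-298-5p, whereas miR-296-5p differed between P4 and P15 by 0.04 (interval -0.49 to 0.58, limma adjusted p = 1).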

How the data were processed

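Per the labels' protocols, a PureLink kit was used for RNA and a TruSeq kit for the libraries. The deposited score per miRNA and library is a normalized count that the authors rounded to whole numbers. The submitters' processing notes name cutadapt, DESeq2 1.30.0 and mm10; for the aligner, the counter and the miRNA set, nothing is given in the sources used here. Columns were joined to libraries by description, and for day 0 by title.

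Values were tested as log2(normalized count + 1) in limma (3.58.1, under R 4.3.3), using its robust and trend settings (9 group means in 1 fit, 9 residual degrees of freedom), for miRNAs of at least 10 in at least 2 libraries. Arm ratios were fitted the same way. Adjusted p-values are Benjamini-Hochberg within a comparison. Reads were estimated from the spacing of values below 1000, where at least 99% lay within 0.5 of a common step. Scripts were tested on simulated data. Named miRNAs were the 4 members, 2 short lists (imprinted loci outside the large clusters; miRNAs acting on pluripotency factors) and the 5 most alike by Pearson r. Members and lists were chosen with earlier results of these data known. Alternatives were a common floor, 10 added in place of 1, no filter, equal totals, each library left out and a replicate block.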

Additional observations from a re-analysis of the deposited data

Results flagged for a closer look

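miR-296-3p in outgrowths had 1 high library, day 0.5 replicate 2, with 601 normalized counts, whose distance to the next value passes the 95% limit for 10 libraries by a small margin. That limit is passed by chance in about 1 of 20 groups only where all libraries are of 1 kind. These 10 came from different days, with means of 218 to 479, and distances were taken for each arm at both ends. The rate of a chance pass is therefore not known here. miR-298-3p had 1 outgrowth library above 0, day 5 replicate 2, with 1 normalized count. ESC codes P4 and P2 differed in their change from day 5 for miR-298-5p by 1.76 log2 and for miR-296-3p by 1.38, in the tests of P4 against P2 given above, which were added after the values were seen.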

How the results depend on the processing

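All values here are log2 changes unless named as an adjusted p. Of 798 recomputed values for 67 results, 716 kept direction and call, 34 lost the call, 15 gained it and 33 changed sign. Rescaling to the same total moved the most, and its cause was not tested. It gave for miR-296-5p 0.50 in ESCs against ICM, 0.31 in ESCs against outgrowths, -0.11 in P15 against P2 and P4 and -0.11 on day 0.5 against ICM. For miR-296-3p it gave -1.08 in ESCs against ICM, -0.35 against outgrowths, -0.41 against day 5, -0.23 in P15 against P2 and P4, 0.99 in P4 against P2 and -0.045 on day 0.5 against ICM. For miR-298-5p it gave -0.52 in ESCs against ICM, -0.048 against outgrowths, -0.21 against day 5, -0.28 in P15 against P2 and P4, 0.39 on day 5 against day 3 and -0.47 in outgrowths against ICM, calls being gained in the first and the last 2 of these comparisons. The common floor brought calls for miR-296-5p in P15 (0.68) and P4 (0.72) against P2, which rescaling took to 0.057 and 0.33, and for the arm ratio in ESCs against outgrowths (0.67), outgrowths against ICM (0.91) and day 2 against day 1 (2.04). With 10 added, the arm ratio was called at 0.64 in ESCs against outgrowths and 1.94 on day 2 against day 1. The change of miR-298-5p on day 2, -0.56, lost its call with no filter (adjusted p = 0.066) and with the replicate block (adjusted p = 0.0591).

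The deviations of same-numbered libraries correlated at -0.36 to 0.245 over 36 pairs of groups, 3 of them over 0.1. The replicate numbers thus gave little sign of pairing, which low correlations cannot exclude. The replicate block also gave an adjusted p of 0.0505 for any difference in the arm ratio.

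Leaving out 1 library gave these ranges. The arm ratio ran from 1.29 to 1.86 in ESCs against ICM, from -0.55 to 0.42 on day 0.5 against ICM, from -0.75 to 0.23 on day 1 against day 0.5, from -0.65 to 0.41 on day 3 against day 2 and from -0.19 to 0.33 on day 5 against day 3, and its adjusted p for any difference from 0.0214 to 0.0989. miR-296-3p ran from 1.31 to 1.45 in P4 against P2, from -0.073 to 0.15 in ESCs against day 5, from -0.24 to 0.51 on day 0.5 against ICM, from -0.73 to 0.015 on day 1 against day 0.5 and from -0.68 to 0.18 on day 3 against day 2, and its adjusted p for any difference from 0.0114 to 0.0759. miR-296-5p ran from -0.20 to 0.13 in ESCs against day 5, from -0.12 to 0.21 in P4 against P15 and from -0.045 to 0.18 on day 0.5 against ICM. miR-298-5p ran from 0.58 to 0.90 in P4 against P15, from -0.58 to -0.53 on day 2 against day 1, from -0.21 to 0.071 on day 0.5 against ICM and from -0.023 to 0.14 on day 1 against day 0.5. miR-298-3p ran from -2.75 to 1.34 in ESCs against ICM and from -3.99 to 0.10 in outgrowths against ICM. A group left with 1 library is taken to vary like the others. miR-298-3p could not be fitted at the common floor.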
